A study of Mus musculus with 8 samples.

Results

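A set of 10 genes that mark classical monocytes, Ly6c2, Ccr2, Lyz2, Cd14, F13a1, Ms4a6c, Fn1, S100a4, Il1b and Cx3cr1, were followed through the RNA-seq of B cells sorted from bone marrow. They were chosen by symbol, and all 10 were found once each among the 54532 Ensembl identifiers of the deposited count table. The libraries came from mice after sham surgery (Sham, 3 libraries) or after ovariectomy (OVX, 3 libraries), in which removal of the ovaries serves as a model of estrogen deficiency. B cells were taken from the marrow by magnetic sorting. The labels of these libraries give neither the strain nor the age of the mice, nor how many mice went into a library, so the spread between libraries may be partly technical. No treatment or allele other than the surgery is labelled, and the ChIP-seq samples of the series were not analysed here.

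Classical monocytes are made in the bone marrow from granulocyte and monocyte progenitors and leave it through the chemokine receptor CCR2 to enter the blood and inflamed tissue. There they can turn into macrophages, and in bone the monocyte lineage also gives rise to osteoclasts. Monocytes are not the sorted cell type, and several of the genes are shared with other cells. Lyz2 is also transcribed by neutrophils and macrophages, Il1b by neutrophils, F13a1 by megakaryocytes, Fn1 by stromal and endothelial cells, and S100a4 by many cell types.

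A library held between 23838775 and 33136701 counted reads. A list of 10 general B cell genes, Cd79a and Pax5 among them, varied little, with a summed level between 8601 and 10030 CPM (reads per 1000000 of the library, after correction of its size by edgeR's TMM factor). The range of this list was 1.17-fold from the lowest to the highest library. No pair of libraries agreed within sampling noise, and the lowest chi-square per degree of freedom of the 15 pairs was 8.71. The low-count filter of edgeR kept 15305 genes for testing, 9 of the 10 monocyte genes among them, and S100a4 did not pass.

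The 10 genes together took between 0.0243% and 0.155% of all counts. In the Sham group their share was 0.0505%, 0.0810% and 0.155% in replicates 1, 2 and 3, and in the OVX group it was 0.0771%, 0.0243% and 0.0384%. Sham replicate 3 was highest and OVX replicate 2 lowest, with 95% Wilson intervals of 0.153% to 0.156% and of 0.0237% to 0.0248%, which cover counting error only. OVX replicate 1 lay between the Sham libraries, so that the groups overlapped. On average the 10 genes took 0.0466% ± 0.0273 in OVX against 0.0954% ± 0.0536 in Sham (SD, 3 libraries each). Most of these reads were of Lyz2, a gene that neutrophils and macrophages transcribe too, and which held between 69.4% and 83.5% of the reads of the 10 genes. Lists of 12 neutrophil genes and 6 granule progenitor genes were also highest in Sham replicate 3 and lowest in OVX replicates 2 and 3, with median log2 fold changes of -1.26 and -1.67 for OVX relative to Sham, and their part in the share of the 10 genes was not tested. In bulk libraries such as these, fewer cells of a type and less RNA per cell cannot be told apart.

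Ly6c2 (ENSMUSG00000022584, chr15:75108161-75112066 in GRCm38.p6), one of the genes behind the Ly6C antigen by which classical monocytes are sorted, had 734 reads in Sham replicate 1, 1765 in replicate 2 and 3749 in replicate 3, and the OVX libraries had 1379, 439 and 429 in the same order of replicates. OVX replicates 2 and 3 were the lowest of all, while OVX replicate 1 lay above Sham replicate 1. The level was 28.2 ± 24.2 CPM after OVX and 81.2 ± 62.1 CPM after Sham surgery (SD, 3 libraries each). This corresponded to a log2 fold change of -1.53 for OVX relative to Sham (standard error 0.72), with an adjusted p of 0.811 in edgeR. The highest library exceeded the lowest 11.6-fold. Ly6c1, a close relative of Ly6c2 that is known from endothelium and lymphocytes, had between 6 and 11 reads in a library and 0.539% of the reads counted for this pair. Reads that align equally well to both genes may have been assigned or dropped in a way that the sources used here do not describe.

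The stretch before 1 of the annotated start sites of Ly6c2 is shown here from RefSeq on GRCm38.p6. It is on the minus strand, chr15:75111972-75112221, with 250 bases ending at the base before that start. Part of this window lies inside the gene span given above, whose upstream end is at 75112066. Capitals mark GAGGAAGT, the letters bound by PU.1, an ETS factor that monocytes need and that B cells also contain. The match starts 108 bases before this start site. The window at the other annotated start of Ly6c2 held the letters in 2 places. Of these, the match 142 bases before the other start is the same site. Searched on both strands, they were in 2.44% of the 32851 promoter windows of this length, and among the 8 of the 10 genes with a window Ly6c2 was the only one to hold them. In F13a1 (minus strand, chr13:37050245-37050494), the shorter core GAGGAA, which lies inside GAGGAAGT and occurs in 23.3% of all windows, stood 66 bases before the start. The window at the other annotated start of F13a1 did not hold this core. TTGCNNAA, the letters of C/EBP factors, was in 9.56% of all windows and in 0 of the 8 genes. A match gives the letters only.
Ly6c2: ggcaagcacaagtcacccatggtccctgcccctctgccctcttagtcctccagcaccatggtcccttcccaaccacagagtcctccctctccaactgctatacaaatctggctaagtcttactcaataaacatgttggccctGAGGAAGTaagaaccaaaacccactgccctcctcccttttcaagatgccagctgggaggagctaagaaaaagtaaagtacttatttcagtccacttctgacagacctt
F13a1: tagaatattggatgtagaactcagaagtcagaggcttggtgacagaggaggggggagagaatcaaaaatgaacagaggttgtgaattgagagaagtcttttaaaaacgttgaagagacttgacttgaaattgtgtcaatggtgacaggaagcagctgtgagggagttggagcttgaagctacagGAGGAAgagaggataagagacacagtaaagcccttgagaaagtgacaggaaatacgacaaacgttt

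Ccr2 (ENSMUSG00000049103), the receptor through which monocytes leave the marrow, had 259, 651 and 1395 reads in the Sham libraries and 520, 128 and 89 reads in the OVX libraries, in the order of the replicates. The order of the libraries was that of Ly6c2, with Sham replicate 3 highest and OVX replicate 3 lowest, 20.8-fold apart. In CPM the level was 9.45 ± 10.2 after OVX and 29.96 ± 23.4 after Sham surgery (SD, 3 libraries each), and the log2 fold change was -1.68 (standard error 0.85). Cx3cr1 (ENSMUSG00000052336), the fractalkine receptor, which is higher on nonclassical than on classical monocytes, had 45, 163 and 268 reads in Sham and 112, 27 and 35 in OVX. Here OVX replicate 2 was the lowest library, and the level was 2.19 ± 2.05 CPM after OVX and 6.13 ± 4.45 CPM after Sham surgery (SD, 3 libraries each). The log2 fold change of Cx3cr1 was -1.50 (standard error 0.78). Both receptor genes lie on chromosome 9, at chr9:124101918-124109140 (Ccr2) and chr9:120048683-120068296 (Cx3cr1) in GRCm38.p6, where the noncoding gene Gm33858 overlaps Cx3cr1.

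Among the genes of secreted proteins, Fn1 (ENSMUSG00000026193, chr1:71585473-71653280), which encodes the matrix protein fibronectin, showed the widest range, 21.7-fold. Its reads numbered 443, 1435 and 3228 across the Sham libraries and 1208, 208 and 198 across the OVX libraries. The lowest libraries were again OVX replicates 2 and 3. Its log2 fold change of -1.68 had a standard error of 0.95, and its level was 20.8 ± 24.5 CPM in OVX against 66.3 ± 57.2 CPM in Sham (SD, 3 libraries each). Lyz2 (ENSMUSG00000069516, chr10:117277541-117282272), the lysozyme of myeloid cells, was counted with 9332, 16114 and 26619 reads in Sham and 14162, 5166 and 10634 in OVX. OVX replicate 3 was less low for Lyz2 than for Ly6c2, Ccr2 and Fn1, with 322 CPM against 182 CPM in OVX replicate 2. The level of Lyz2 was 360.0 ± 199.8 CPM after OVX and 677 ± 351 CPM after Sham surgery (SD, 3 libraries each), and the log2 fold change was -0.91 (standard error 0.48). Lyz1, its neighbour in sequence and known from Paneth cells of the gut, held 0.0658% of the reads of the pair.

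F13a1 (ENSMUSG00000039109, chr13:36867178-37050244), the A chain of coagulation factor XIII, had 760, 1155 and 2143 reads in Sham and 909, 639 and 733 in OVX. OVX replicate 1 was above Sham replicate 1, and OVX replicates 2 and 3 were nearly equal in CPM. With 27.2 ± 8.45 CPM after OVX and 52.9 ± 29.1 CPM after Sham surgery (SD, 3 libraries each), the log2 fold change was -0.96 (standard error 0.39). The noncoding genes Gm30489 and Gm30240 overlap F13a1. Il1b (ENSMUSG00000027398, chr2:129364569-129371164), the inflammatory cytokine interleukin-1β, had 63, 125 and 172 reads in Sham and 165, 44 and 30 in OVX. Its level in OVX replicate 1, 6.71 CPM, was close to the highest, 6.91 CPM in Sham replicate 3, and the other OVX libraries were the lowest with 1.55 and 0.907 CPM. A log2 fold change of -0.62 with a standard error of 0.73 was no larger than its error. Il1bos, a noncoding gene, overlaps Il1b, and because no source used here gives the strand setting of the counting, the reads of overlapping genes cannot be told apart.

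Ms4a6c (ENSMUSG00000079419, chr19:11469353-11487182), a membrane protein of the MS4A family found on monocytes and macrophages, had 299, 839 and 724 reads in Sham and 395, 290 and 313 in OVX. Sham replicates 2 and 3 stood apart at 29.5 and 29.1 CPM, and the other libraries lay between 9.47 and 16.1 CPM. The level was 11.9 ± 3.61 CPM after OVX and 23.7 ± 9.64 CPM after Sham surgery (SD, 3 libraries each), and the log2 fold change was -0.998 (standard error 0.35). The noncoding gene BE692007 overlaps it. Its relative Ms4a6b, which had 310, 808 and 564 reads in Sham and 392, 250 and 367 in OVX, gave a log2 fold change of -0.84 (standard error 0.32). Ms4a6b was at an unadjusted p of 0.0329 and was not called, and Ms4a6d had 649 reads in all libraries together. Of all genes read as relatives of the monocyte genes, the most reads were of Ly6a, a Ly6 gene like Ly6c2, which encodes the stem cell antigen Sca-1. The log2 fold change of Ly6a was -0.71 (standard error 0.52).

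Cd14 (ENSMUSG00000051439), the lipopolysaccharide coreceptor that hands its ligand to TLR4, did not follow the other genes. Its reads numbered 112, 241 and 69 across the Sham libraries and 56, 88 and 275 across the OVX libraries. Sham replicate 2 and OVX replicate 3 were highest, with 8.48 and 8.32 CPM, and Sham replicate 3, the highest library for 7 of the other 8 tested genes, was the second lowest. The mean was 4.57 ± 3.27 CPM after OVX and 5.33 ± 2.90 CPM after Sham surgery (SD, 3 libraries each), and the log2 fold change was -0.22 (standard error 0.57). Without Sham replicate 2 the log2 fold change was 0.29, without OVX replicate 1 it was 0.10 and without OVX replicate 3 it was -0.98.

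S100a4 (ENSMUSG00000001020, chr3:90603770-90606045), a calcium-binding protein abundant in mature monocytes, was close to undetected. It had 2, 5 and 9 reads in Sham and 1, 2 and 2 in OVX, which gives no basis for a fold change. Another S100 gene, S100a6, had 271, 653 and 1159 reads in Sham and 501, 165 and 235 in OVX, and its order of libraries was close to that of Ly6c2. S100a6 held 99.3% of the reads counted for S100a4 and S100a6 together. No other RefSeq gene overlaps S100a4 on GRCm38.p6, and whether the counting lost reads of this short gene was not tested.

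**Figure D1:**
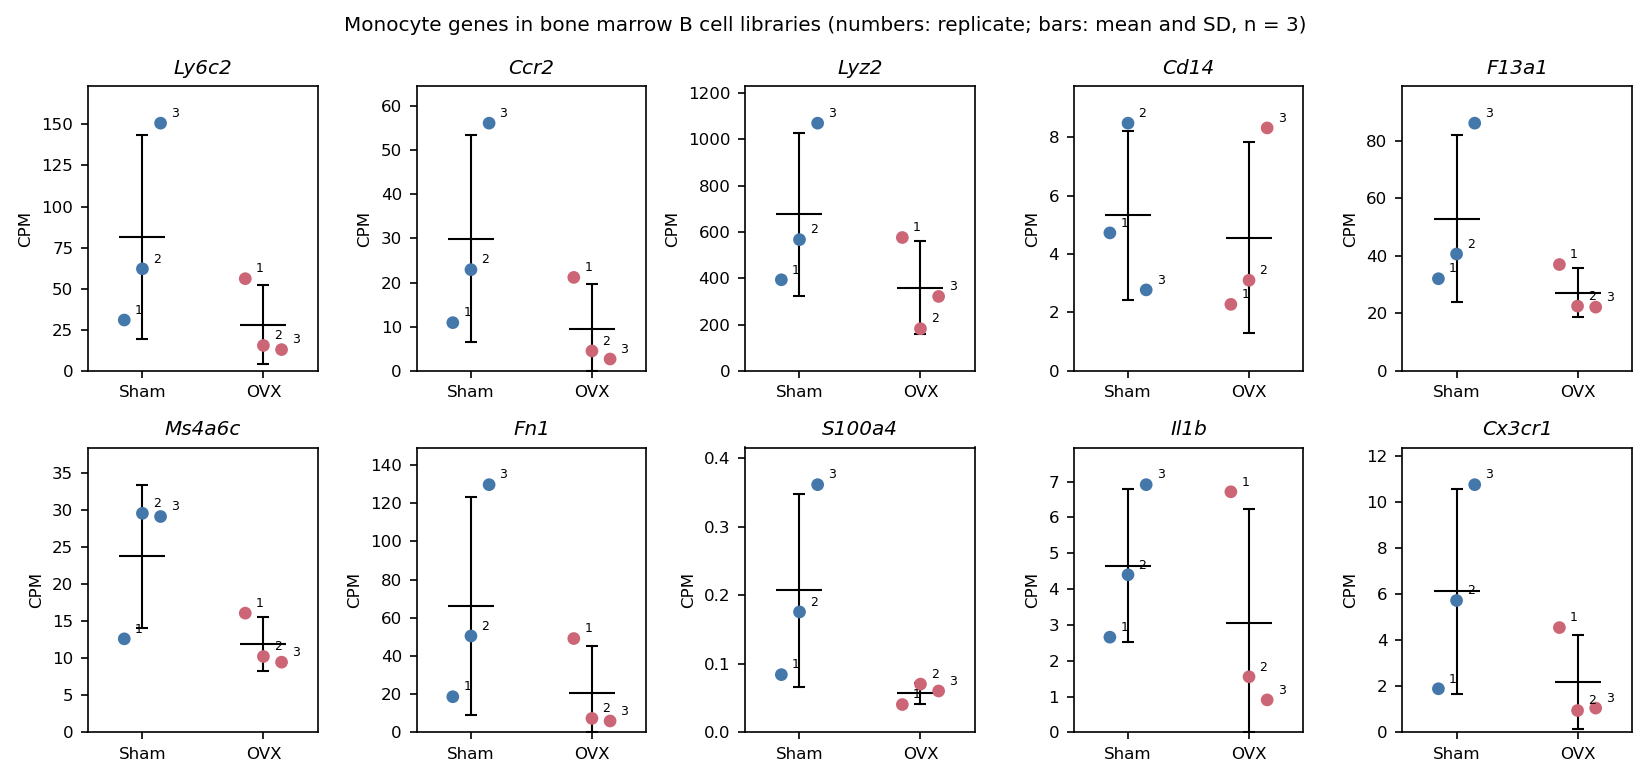
Level of each of the 10 monocyte genes in CPM (vertical axes, linear and from 0) in Sham (blue) and OVX (red) libraries, with a point for each library, numbered by replicate, and black lines for mean and SD of 3 libraries, whose lower arm is drawn no further than 0. For Ly6c2, Ccr2, Fn1, Lyz2, F13a1, Il1b and Cx3cr1 Sham replicate 3 is the highest point and OVX replicate 1 lies among the Sham points, whereas Cd14 is highest in Sham replicate 2 and OVX replicate 3.

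Ovariectomy was compared with sham surgery over all genes, to ask which transcripts of the sorted fraction differ under estrogen deficiency. All 9 tested monocyte genes had a negative log2 fold change, from -1.68 for Fn1 to -0.22 for Cd14, with a median of -0.998. Apart from Cd14 they varied together over the 6 libraries (Pearson r from 0.816 to 0.996), so their signs are not separate observations. Over all genes 51.8% were lower in OVX, the median was -0.01, and 3.23% had a value at or below the median of the monocyte genes. Not one of the 9 passed an adjusted p-value of 0.05 in edgeR's quasi-likelihood test, where 0 of all 15305 genes (0%) were called. Nor did DESeq2 or limma-voom call any gene. At an unadjusted p-value under 0.05 there stood 574 of 15305 genes in edgeR, 755 of 27412 in DESeq2 and 594 of 15305 in limma-voom. Unadjusted p-values of edgeR fell under 0.05 for 2 of the 9, Ms4a6c and F13a1, against 2.28% of all genes lower in OVX at that level. They were 0.0246 for Ms4a6c and 0.0400 for F13a1. In DESeq2 1 of the 9 was under 0.05 and in limma-voom 2 were, Ms4a6c in both. F13a1 was at an unadjusted p of 0.0525 in DESeq2 and 0.0520 in limma-voom. The libraries of the groups overlapped for each of the 9 genes, and over all genes they did not overlap for 8.44%. The two-sided exact permutation test over the 6 libraries gave p-values between 0.2 and 0.7 for the 9 genes, where 3 libraries against 3 allow no p below 0.1.

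The size of the differences rested on single libraries. Without Sham replicate 3 the median log2 fold change of the 9 genes was -0.74, with Ly6c2 at -0.74, Ccr2 at -0.86 and Fn1 at -0.75. Without OVX replicate 1 the median was -1.92, with Ly6c2 at -2.51, Ccr2 at -3.06 and Fn1 at -3.31, and 8 of the 9 genes, rather than 2, were then at an unadjusted p-value under 0.05. That number was 6 when Sham replicate 1 was left out, 1 when Sham replicate 2 was, and 0 when Sham replicate 3, OVX replicate 2 or OVX replicate 3 was. The number over all genes moved too. It was 574 of 15305 with all 6 libraries, 988 of 15977 without OVX replicate 1 and 2698 of 16051 without Sham replicate 1. Without Sham replicate 2 or 3 it was 360 or 286, and without OVX replicate 2 or 3 it was 233 or 411. In none of these fits was a monocyte gene called.

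**Figure D2:**
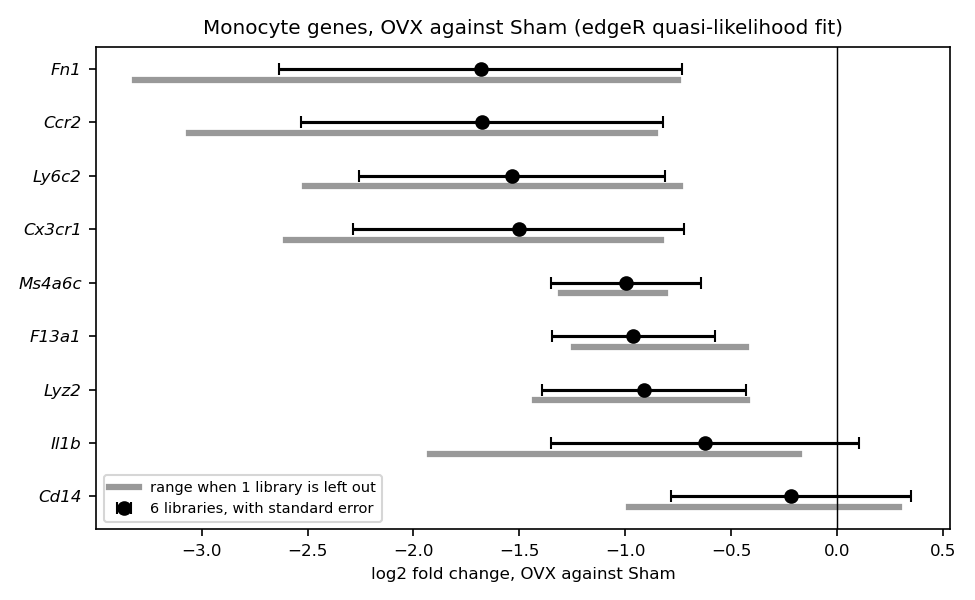
Log2 fold change of OVX against Sham (horizontal axis) for the 9 tested monocyte genes, with points and black bars for the fit of 6 libraries and its standard error, and grey bars for the range of the 6 fits that each left out 1 library. The points run from -1.68 to -0.22, and the grey bar of Cd14 crosses 0.

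The reads of these genes were also set in proportion to each other within each library. Ly6c2 had 2.83, 2.71, 2.69 and 2.65 reads per read of Ccr2 in Sham replicates 1, 2 and 3 and OVX replicate 1, and 3.43 and 4.82 in OVX replicates 2 and 3. Per read of Cx3cr1 it had between 10.8 and 16.3 reads, and per read of Fn1 between 1.14 and 2.17. The proportion of Ly6c2 changed 1.51-fold between libraries against Cx3cr1, 1.82-fold against Ccr2 and 1.90-fold against Fn1, where the level of Ly6c2 changed 11.6-fold. It changed 2.61-fold against Il1b, 2.99-fold against F13a1, 3.49-fold against Lyz2 and 3.78-fold against Ms4a6c, the last more than the 3.12-fold range of Ms4a6c itself. The widest range was against Cd14, where the proportion ran from 1.56 in OVX replicate 3 to 54.3 in Sham replicate 3. Across the 6 libraries, 28 pairs of the tested genes other than Cd14 had a Pearson r of log2 levels between 0.816 and 0.996, and the 8 pairs with Cd14 between -0.512 and -0.044. These values describe the same 6 libraries, which also differed in the marker genes of other cells.

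Marker lists of other marrow cells moved with both patterns. A list of 6 genes of granulocyte and monocyte progenitors, the granule enzymes Mpo, Elane, Prtn3 and Ctsg with Ms4a3 and Cebpe, summed to 138.9, 252.9 and 681 CPM across the Sham libraries and to 248.9, 51.2 and 50.9 CPM across the OVX libraries. Ly6c2 had between 221 and 303 reads for every 1000 reads of this list, a 1.37-fold range. The 12 neutrophil genes such as S100a8, S100a9 and Ngp summed to between 1091 and 8883 CPM, with Sham replicate 3 highest for all 12, and Ly6c2 had between 11.2 and 19.4 reads per 1000 of theirs. The 12 genes of resident macrophages, the complement genes C1qa, C1qb and C1qc, Vcam1, Axl and Hmox1 among them, summed to 1302, 2661 and 715 CPM in Sham and to 678, 778 and 2345 CPM in OVX. Cd14 had between 3.19 and 3.99 reads per 1000 reads of the macrophage list, a 1.25-fold range, and between 4.07 and 163 per 1000 reads of the progenitor list. Against the macrophage list Ly6c2 ran from 5.53 to 211 reads per 1000. The part of these cells in the difference between OVX and Sham was not tested.

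**Figure D3:**
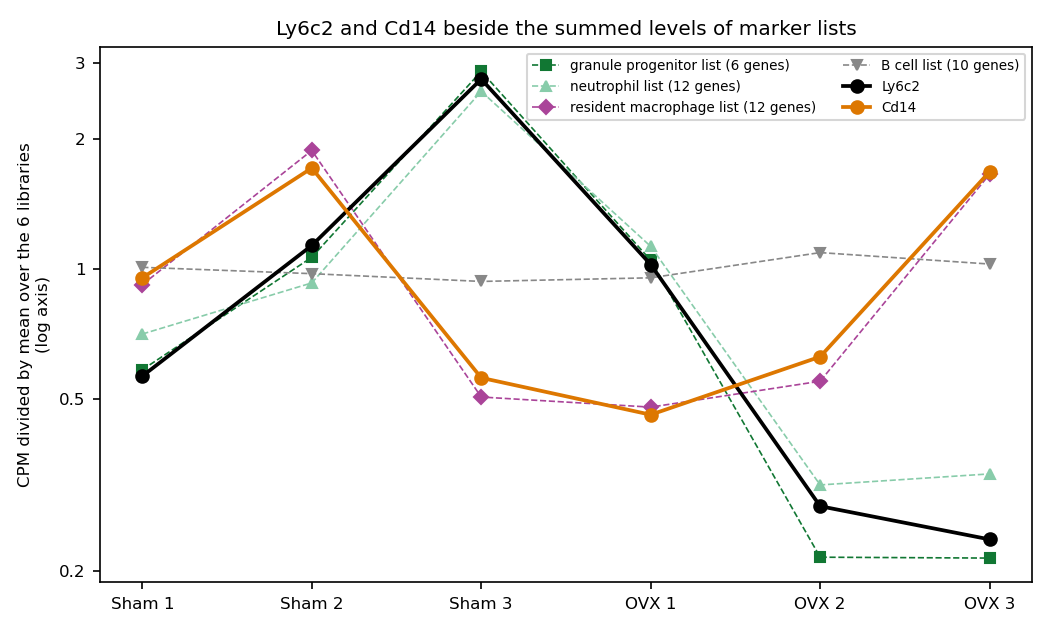
Levels in CPM divided by the mean over the 6 libraries (vertical axis, logarithmic) in each library (horizontal axis) for Ly6c2, Cd14 and 4 marker lists, with lines that only join the points of a gene or list. Ly6c2 runs close to the granule progenitor list and Cd14 close to the resident macrophage list, and the B cell list stays near 1.

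The same division ran through most of 20 other genes of monocytes, all of which were tested. Sham replicate 3 was highest for 8 of the 20, as for 18.3% of all genes tested. These included Chil3, a chitinase-like lectin, with 2698, 5179 and 17666 reads in Sham and 4700, 1365 and 1835 in OVX, and Ifitm6, Tgfbi and Vcan. Another 8 of the 20 had their 2 highest libraries in Sham replicate 2 and OVX replicate 3, as 8.7% of all genes did. They included Csf1r, the receptor for the growth factor of monocytes and macrophages, the Fc receptor gene Fcgr1, Sirpa, Clec4a1, Clec4a3, Clec4n and Cd68. Csf1r had 1129, 3407 and 1456 reads in Sham and 958, 803 and 2780 in OVX. Fcgr3, Mpeg1, Thbs1 and Klf4 had neither pattern. The log2 fold change was negative for 18 of the 20 genes and positive for 2, Thbs1 and Clec4n, and its median was -0.63, and none was called in edgeR's quasi-likelihood test. Tgfbi (log2 fold change -1.32, standard error 0.55) was the only gene of this list at an unadjusted p-value under 0.05, and with the largest number of reads Chil3 was at -1.77 (standard error 0.80).

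The 6 genes of nonclassical monocytes, which patrol the vessel wall, had a median log2 fold change of -0.40, and none was called or at an unadjusted p-value under 0.05. Treml4 and Adgre4 followed the pattern of Cd14, with the highest levels in Sham replicate 2 and OVX replicate 3. Ace had between 13 and 126 reads and was highest in Sham replicate 3. Spn, which encodes CD43 and is also present on B cell precursors, ranged only 1.18-fold, and its log2 fold change was -0.06 (standard error 0.08). Nr4a1, a nuclear receptor that nonclassical monocytes require, was at -0.46 (standard error 0.24).

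**Figure D4:**
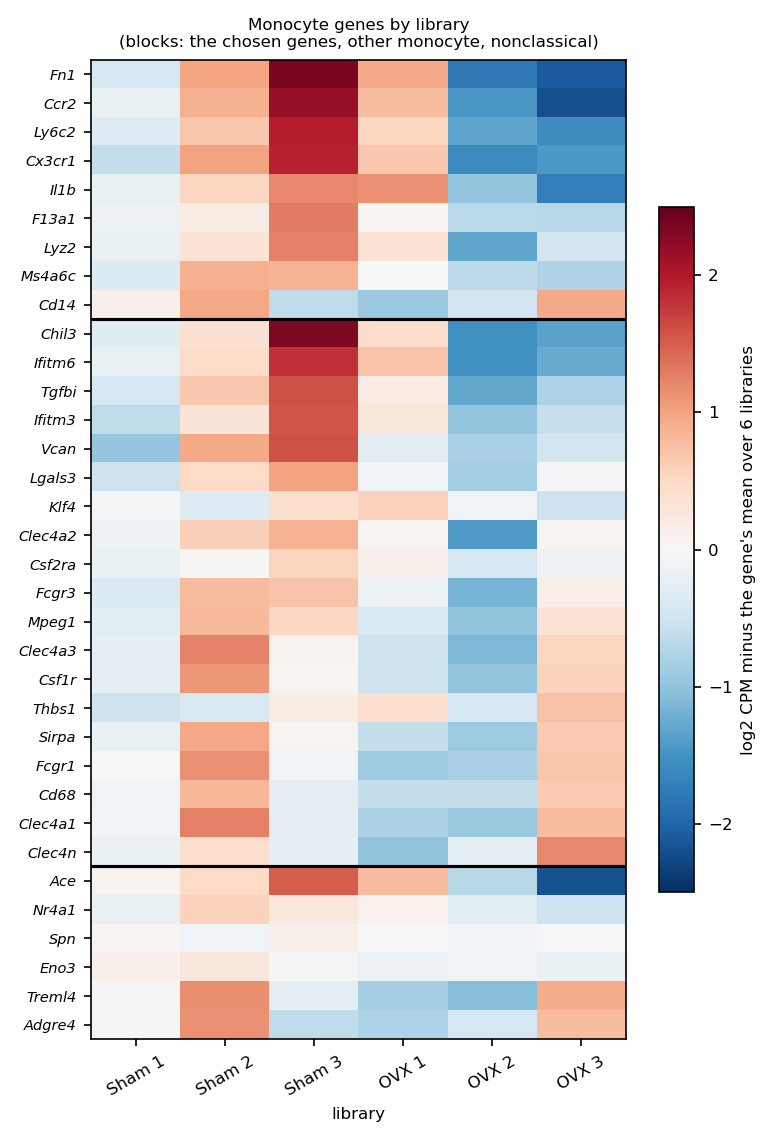
Log2 CPM of each gene minus its mean over the 6 libraries (colour, red above and blue below) for the 9 tested monocyte genes, 19 of the 20 other monocyte genes and 6 nonclassical monocyte genes, in blocks from top to bottom, with libraries as columns. Genes at the top of the first 2 blocks, such as Fn1 and Chil3, are highest in Sham replicate 3 and lowest in OVX replicate 2 or 3, and those at their foot, Cd14 and Clec4a1 among them, are highest in Sham replicate 2 or OVX replicate 3.

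The ligands and partners of these proteins were read as a list of 18 genes. For CCR2 the ligand genes Ccl2, Ccl7 and Ccl12 reached no more than 9, 7 and 6 reads, and Cx3cl1, the ligand of CX3CR1, had between 1 and 20, so these 4 genes were not tested. Of the 14 that were, 10 had a negative and 4 a positive log2 fold change, the median was -0.09, and none was called or at an unadjusted p-value under 0.05. Among these 14 genes 3, all around interleukin-1, had their highest level in Sham replicate 3, a share of 21.4% against 18.3% of all genes. The log2 fold changes were -1.45 for Il1r2, a decoy receptor, -1.19 for Nlrp3, a sensor of the inflammasome, and -1.17 for Il1rn, which encodes the receptor antagonist, with standard errors of 0.70, 0.75 and 0.63. Il1a, which encodes interleukin-1α, and Il1r1, the signalling receptor, were highest in OVX replicate 3, with log2 fold changes of 0.18 (standard error 0.43) and 0.24 (standard error 0.39). The inflammasome genes Casp1, Pycard and Gsdmd ranged at most 1.65-fold, with log2 fold changes of -0.23, 0.27 and -0.07. Of the partners of CD14, Tlr4 had 405, 1010 and 435 reads in Sham and 391, 459 and 905 in OVX, highest in the same libraries as Cd14, and Ly96 ranged 1.5-fold. The fibronectin receptor subunits Itga4, which had the most reads of the list, Itga5 and Itgb1 varied between 1.22-fold and 1.34-fold, against 21.7-fold for Fn1.

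Another 10 genes were taken for having the highest Pearson r with the log2 summed level of the monocyte genes over the 6 libraries, out of 13038 genes outside the lists with a mean of at least 1 CPM. They were Sqor, Gsr, C3, Slpi, Lbp, Cd33, Ccl6, Pygl, Abhd5 and Hk3, with r between 0.996 and 0.999. Their highest level exceeded the lowest between 5.14-fold, for Ccl6, and 11.1-fold, for Sqor, which had 120, 233 and 458 reads in Sham and 189, 47 and 111 in OVX. Lyz2 holds most of the reads in that summed level.

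Other lists were read for cells that could share these genes. The 6 dendritic cell genes held between 0.000432% and 0.00325% of the counts, with the highest share in Sham replicate 3 as for Ly6c2. The 7 genes of T and NK cells held up to 0.00221%, also in that library. The 5 erythroid genes held up to 0.0384% and 4 plasma cell genes up to 0.0843%, both in Sham replicate 2. The 5 platelet genes were highest in OVX replicate 3 with 0.0204%, and Gp1bb had 0 reads in all libraries but that one, which had 1. F13a1 had 22.2 CPM in OVX replicate 3 and 22.5 CPM in OVX replicate 2. The 6 genes of stroma and endothelium, cells that can supply Fn1, were also highest in OVX replicate 3 with 0.00565%. Fn1 had 5.99 CPM in OVX replicate 3 and 7.34 CPM in OVX replicate 2. No gene of any list was called. At an unadjusted p-value of edgeR under 0.05, 2 of 5 tested dendritic cell genes and 2 of 5 erythroid genes were lower in OVX. So were 1 of 4 plasma cell genes and 1 of 7 genes of T and NK cells. At that level 1 of 4 tested platelet genes and 1 of 10 B cell genes were higher. Over all 15305 genes tested, 349 (2.28%) were lower and 225 were higher at that level. The median log2 fold change was -0.33 for macrophages, 0.05 for B cells, -1.20 for dendritic cells, -1.35 for T and NK cells, -0.86 for erythroid cells, -0.56 for plasma cells, 0.64 for platelets and 0.44 for stroma and endothelium. The part of these cells in the levels of the monocyte genes was not tested.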

How the data were processed

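RNA of bone marrow B cells from 3 OVX and 3 Sham libraries was sequenced, and the deposited counts are raw read numbers with Ensembl identifiers in rows and a column for each library. The submitters' processing notes name CASAVA, Bowtie 0.12.2 and the build mm10. The counting tool, annotation and strand setting are not given in the sources used here. Symbols were found for 54409 of 54532 identifiers. Gene positions and promoter sequences are those of RefSeq on GRCm38.p6. A gene length was not used, so proportions between the reads of different genes are not proportions of their transcripts.

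Counts were fitted in R 4.3.3 with edgeR 4.0.16 (filterByExpr, TMM, quasi-likelihood test, Benjamini-Hochberg adjustment over all genes), with DESeq2 1.42.0 and limma 3.58.1 as alternatives. Calls needed an adjusted p-value below 0.05. The standard error is the size of the log2 fold change divided by the square root of F. Permutation tests and likeness used log2(CPM + 0.5). The fits were also run on simulated counts, in which genes varied independently of each other, and the outcome is not given here.

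The genes and marker lists were chosen with earlier results of these data known. Genes were named as members, as genes of the monocyte and partner lists at an unadjusted p-value under 0.05 or with the most reads, as ligands or receptors of members, and as the 10 genes most alike. Others serve as examples chosen after their values were seen. Reads carry no molecular identifiers. No batch is labelled. Items withheld from the text are not reported here.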

Additional observations from a re-analysis of the deposited data

How the results depend on the processing

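None of the 9 monocyte genes was called in any of the 14 alternatives, and their lowest adjusted p-value lay between 0.273, without Sham replicate 1, and 1.0, without OVX replicate 2. Of 126 values of single genes under these alternatives 124 kept their sign, and the exceptions were Cd14 without Sham replicate 2, at 0.29, and without OVX replicate 1, at 0.10. Without 1 library Cd14 ran from -0.98 to 0.29. The median log2 fold change of the 9 genes, -0.998, lay between -1.92 and -0.74 when 1 library was left out and between -1.13 and -0.995 otherwise. The log2 ratio of the mean summed level of the 10 genes, OVX to Sham, was -1.02. With 1 library left out it ran from -1.58 (OVX replicate 1 out) to -0.48 (Sham replicate 3 out).

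Over all genes 574 had an unadjusted p-value below 0.05, 225 higher and 349 lower in OVX. Without the low-count filter there were 1269 of 27416, 7 monocyte genes among them. Scaling on the B cell list gave 63 higher and 445 lower. The fit with the replicate block gave 206, and in it 0 of the 9 monocyte genes were at that level. The number of genes below 0.05 ran from 233 without OVX replicate 2 to 2698 without Sham replicate 1 when 1 library was left out. The cause was not tested. Same-numbered libraries had correlations of their deviations of -0.410, -0.189 and -0.279, and no library correlated best with its own number. The labels do not say whether replicate numbers pair the libraries. With 3 libraries a group, which also differed in the marker genes of other cells, these correlations cannot decide it.

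Libraries of the same group differed widely, as Ly6c2 did with 31.0 CPM in Sham replicate 1 and 150.7 CPM in Sham replicate 3. The median SD of the 9 genes within groups was 1.149 on the log2 CPM scale, which with 3 libraries a group limits what can be called.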
